A study of Mus musculus with 113 samples.

Results

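Mouse embryos in which 4 nuclear receptor (NR) genes had been knocked down together (4KD) were compared with negative control (NC) embryos at the 4-cell (4C) stage. The comparison rests on 4 RNA-seq libraries, 2 of 4KD and 2 of NC pools, out of 113 samples listed for the study, chosen by the stage and siRNA in their titles. Of 24006 genes in the FPKM files, 9753 had a mean of at least 1 FPKM in the 4KD or the NC group at 4C and were tested. FPKM are fragments scaled to transcript length and library size, so levels of different genes can be set side by side per length. NC embryos had received 20 µM of a control siRNA, and 4KD embryos siRNAs against *Nr5a2*, *Rarg*, *Nr1h3* and *Nr2c2* at 5 µM for each gene, both by injection into zygotes. Embryos of all groups were wild type, came from superovulated females mated to males, and carried no deletion. By the methods, mothers were C57BL/6N (C57BL/6J in the sample list) and fathers PWK/PhJ mice. The same groups at the 8-cell (8C) stage, 2 libraries each, are used for comparison. They share the fit, but no library, with the 4C contrast. NC pools at the 2-cell (2C) stage, also used below, had received 20 µM of control siRNA. NC and single-receptor knockdown (single-KD) pools of another 8C experiment had received 5 µM of siRNA. The 2C and 8C pools that set the stage scale below thus differ in siRNA dose. Each library is a bulk pool of embryos, in which fewer cells of a type and less RNA per cell cannot be told apart. The study calls the 2 libraries of a group biological replicates. It does not state whether the 2 pools came from separate collections or injections, so the p-values measure only the spread between these pools.

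Nuclear receptors are transcription factors, many of them switched by small lipophilic ligands, that bind DNA at hexamers of the AGGTCA kind, alone or as dimers. NR5A2 (LRH-1) binds an extended hexamer as a monomer and is known for its role in liver metabolism and in pluripotent cells. RARG is a retinoic acid receptor and NR1H3 (LXR alpha) a sensor of oxysterols that switches on lipid genes, both as partners of RXR, and NR2C2 (TR4) is an orphan receptor that binds direct repeats. At the 4C stage the mouse embryo has passed zygotic genome activation (ZGA), most maternal mRNA is gone, and the genes of compaction and of the first lineages are starting to be transcribed.

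The 4 libraries were not alike within their groups. Each library was placed between the 2C NC pools (0%) and the 8C NC pools of another experiment (100%) by its mean log2(FPKM + 1) over 1130 genes at least 4-fold higher at 8C than at 2C. NC replicate 1 stood at 78.6%, NC replicate 2 at 65.8%, 4KD replicate 1 at 58.6% and 4KD replicate 2 at 67.1%, against 93.3% in both 8C NC libraries of the same experiment. On 1211 genes at least 4-fold lower at 8C than at 2C, the same 4 libraries stood at 83.1%, 68.3%, 76.6% and 76.2%. NC replicate 1 was thus the furthest along on both scales, and its closest library by Pearson correlation of log2 values across the genes was the 8C NC replicate 2 (r = 0.946), not the other 4C NC pool (r = 0.9). The library numbers in the file headers place the 4C replicate 1 pools beside the 8C replicate 2 pools. Replicate numbers here are those of the labels and file headers. A gene table of the study carries the 4C NC pools in the opposite order, with the 4KD pools as here, so which NC pool goes with which 4KD pool is in doubt, and values by replicate pair below hold only for the labelled numbers.

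**Figure D1:**
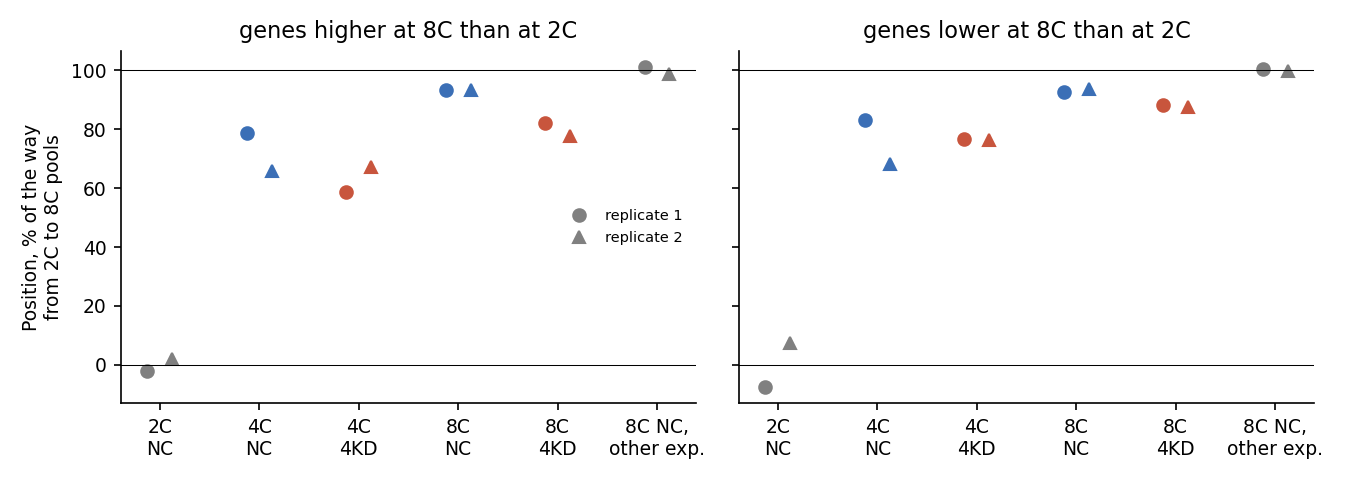
Position of each library between 2C NC pools (0%) and 8C NC pools of another experiment (100%), from the mean log2(FPKM + 1) over genes higher (left, 1130 genes) and lower (right, 1211 genes) at 8C than at 2C. NC pools are blue, 4KD pools red and the pools that set the scale grey, with circles for replicate 1 and triangles for replicate 2. NC replicate 1 at 4C lies at 78.6% and 83.1%, above the other 4C libraries in both panels.

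FPKM sums ran from 393400 to 496144 and 8653 to 8860 genes reached 1 FPKM in the 4C libraries. Read counts are not in these values. The most frequent ratio of FPKM under 0.5 between libraries, which compares 1 fragment with 1 fragment, put the depth of NC replicate 2, 4KD replicate 1 and 4KD replicate 2 at 0.702, 0.841 and 0.483 of that of NC replicate 1, so the 4KD replicate 2 pool is the least precise for genes of low level. The pools carried cleavage-stage transcripts: 10 of 10 markers were tested, and their summed FPKM lay between 5976 and 6681 in NC and between 8065 and 8194 in 4KD pools. Of 8 cumulus and granulosa cell markers, 6 were listed at 0 in all 4 pools, and their summed level was 0.105 FPKM in NC replicate 1, 0.37 in 4KD replicate 1 and 0 in the other pools. The 3 oviduct markers summed to at most 1.1 FPKM, and *Foxj1* and *Pax8* were listed at 0. The 4 sperm markers summed to 2.69 and 3.26 FPKM in NC pools and 0 in both 4KD pools. Of 4 blood markers, *Hbb-b1*, *Alas2* and *Ptprc* were listed at 0 and *Hba-a1* ranged from 10.7 to 113 FPKM.

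All 4 targeted receptors were lower in both 4KD pools than in either NC pool, most for *Nr2c2* and least for *Rarg*. *Nr5a2* (mm9, chromosome 1, 138740161 to 138857004) was at 26.8 and 31.7 FPKM in NC pools and at 3.98 and 17.6 FPKM in 4KD pools. The groups did not overlap, but the 4KD pools lay far apart, and replicate 2 lay nearer to the NC pools than to replicate 1. The log2 difference, 4KD minus NC on the log2(FPKM + 1) scale as everywhere below, was -1.65 (SE 0.62). *Nr1h3* (chromosome 2, 91024218 to 91042991) was at 15.0 and 22.3 FPKM in NC and at 1.61 and 8.35 FPKM in 4KD pools, a difference of -1.97 (SE 0.63). Again 4KD replicate 1 was the lower of the pair. *Nr2c2* (chromosome 6, 92041384 to 92123051) was at 15.0 and 14.5 FPKM in NC and 2.1 and 4.17 FPKM in 4KD pools, a difference of -1.97 (SE 0.51). *Rarg* (chromosome 15, 102065369 to 102087948) was at 16.2 and 7.26 FPKM in NC and 5.45 and 5.95 FPKM in 4KD pools, a difference of -0.83 (SE 0.56). Its groups were separated only by the gap between 7.26 and 5.95 FPKM, and the NC pools differed more from each other than that. By limma the unadjusted p-values were 0.0251, 0.0121, 0.00371 and 0.169 in the order described, and the smallest adjusted p of the 4, over all genes, was 0.658. Without 4KD replicate 1 the *Nr5a2* difference was -0.69, and without NC replicate 1 that of *Rarg* was -0.30. None was called, and the mean level left in 4KD pools was 37.0% of NC (*Nr5a2*), 48.6% (*Rarg*), 26.7% (*Nr1h3*) and 21.3% (*Nr2c2*). At 8C all 4 were lower in both 4KD pools as well, with log2 differences of -2.25, -1.20, -2.59 and -1.60 in the same order, and none of the 4 differences between the stages reached an unadjusted p of 0.05 (limma, smallest p = 0.504).

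**Figure D2:**
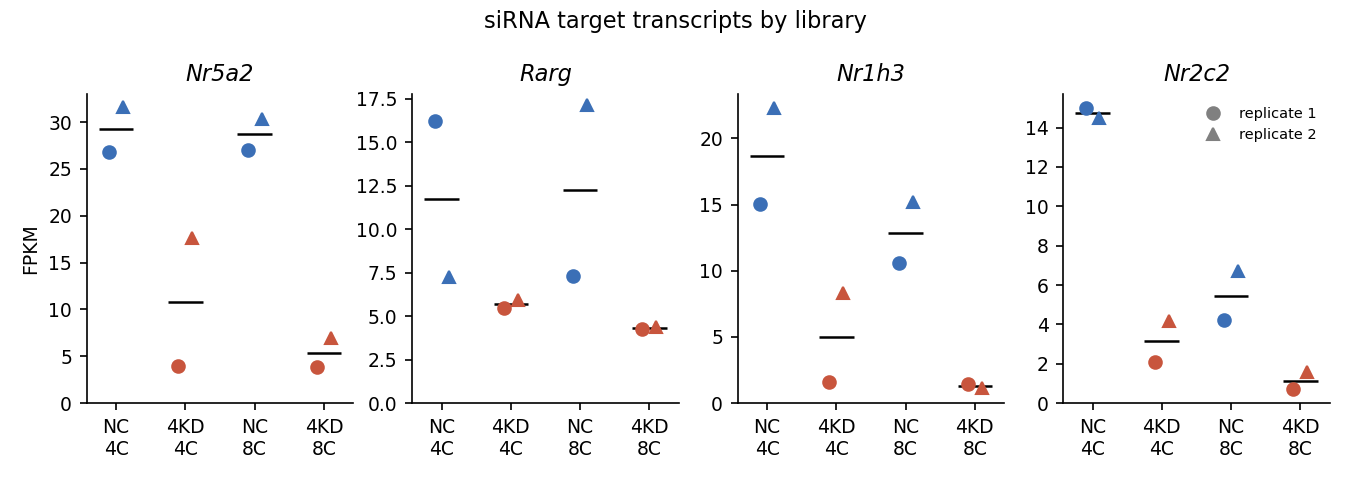
FPKM of the 4 siRNA targets in each library at 4C and 8C. Circles are replicate 1, triangles replicate 2 and bars the mean of 2 libraries. Every 4KD library lies below every NC library of its stage, and *Nr5a2* in 4KD replicate 2 at 4C (17.6 FPKM) is the highest of the 4KD values.

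The closest paralogs of the targets had no common direction. *Nr5a1*, the other NR5A receptor, was listed at 0 in all 4 pools, and *Rara* and *Nr2c1* (TR2, the partner of TR4) stayed at or below 1.43 FPKM. *Nr1h2* (LXR beta) was at 42.6 and 14.6 FPKM in NC and 57.0 and 21.3 FPKM in 4KD pools, where the replicate 1 pools were the higher in both groups. *Rarb* was at 5.88 FPKM in NC replicate 1 and at 0, 0.357 and 0 in the others. Of 40 other nuclear receptors, 10 were tested, and *Esrrb*, an orphan receptor of pluripotent cells, had the smallest p: 4.58 and 0.606 FPKM in NC against 6.43 and 10.3 FPKM in 4KD pools (limma, unadjusted p = 0.0433).

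Over all genes the test called 0 of 9753 (0%) at an adjusted p under 0.05, and the smallest adjusted p was 0.406. The stricter limits of the study's methods, an adjusted p under 0.01 and a log2 difference of at least 2, were also met by 0 genes. At an unadjusted p under 0.05 there were 602 genes (6.17%), 368 lower (3.77%) and 234 higher (2.4%). Both 4KD pools lay below both NC pools for 1544 genes (15.8%) and above them for 1492 (15.3%), and the median log2 difference was -0.01. Log2 differences of at least 1 in size were seen for 1337 genes, of which 577 were lower and 392 higher without overlap and 368 overlapped. An exact permutation test of 2 pools against 2 cannot give a two-sided p below 0.333, so what follows describes levels and counts and no gene is said to have risen or fallen. Of genes with a mean of at least 5 FPKM in 1 group, no overlap and an unadjusted p under 0.05, 236 were lower and 133 higher in 4KD pools. The 24 genes named first below are the 12 with the largest log2 differences on each side of this set. With 1 pool left out the number of calls stayed at 0 for 3 of the 4 pools. Without NC replicate 1 there were 37 calls, all lower, but 35 of those 37 genes were under 1 FPKM in the other 7 libraries and stood only in NC replicate 2, at 2.05 to 19.4 FPKM.

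**Figure D3:**
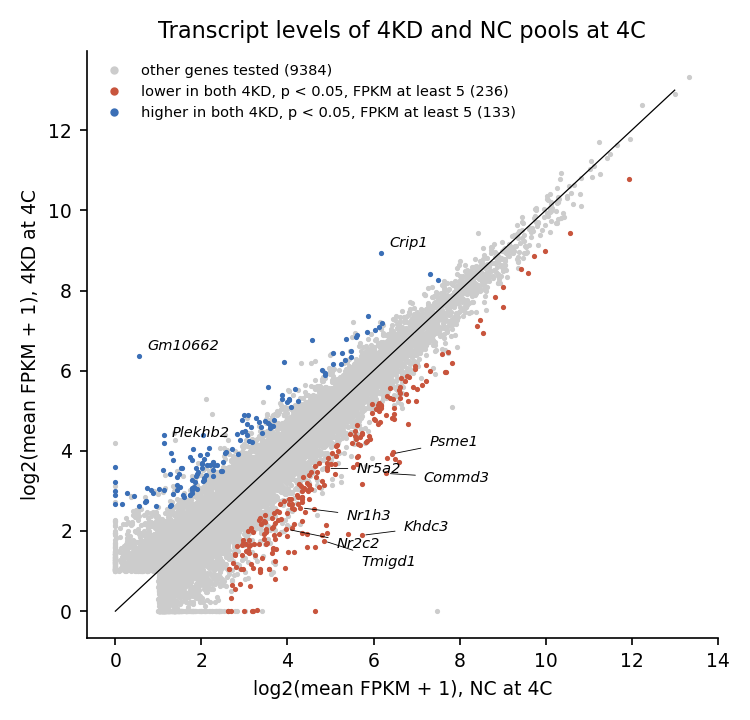
Level of 9753 genes at 4C as log2(mean FPKM + 1) in NC (x) and 4KD (y) pools, with the line of equal levels. Coloured points are the 236 lower and 133 higher genes with no overlap, an unadjusted limma p under 0.05 and a mean of at least 5 FPKM in 1 group; no gene passed adjustment over all genes.

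Among the lower genes, *Tmigd1*, *Psme1* and *Khdc3* kept the same direction at 8C. *Tmigd1* (chromosome 11, 76715661 to 76730089), an adhesion protein with immunoglobulin domains, was at 29.0 and 26.2 FPKM in NC and at 0.896 and 3.87 FPKM in 4KD pools. Its groups were far apart compared with their spread, with a log2 difference of -3.23 (SE 0.53, adjusted p = 0.406 by limma). *Psme1* (chromosome 14, 56196960 to 56200366), the alpha subunit of the PA28 proteasome activator, was at 81.4 and 88.0 FPKM in NC and 3.45 and 24.9 FPKM in 4KD pools. *Khdc3*, which codes for a member of the subcortical maternal complex, was at 93.4 and 10.4 FPKM in NC and at 0 and 5.41 FPKM in 4KD pools. Its NC pools lay far apart, and NC replicate 2 lay nearer to 4KD replicate 2 than to NC replicate 1. With 1 pool left out the log2 difference of *Khdc3* ran from -5.22 (without NC replicate 2) to -2.17 (without NC replicate 1), and that of *Psme1* from -4.27 (without 4KD replicate 2) to -1.73 (without 4KD replicate 1). At 8C *Khdc3* was at 117 and 297 FPKM in NC and 8.37 and 10.0 FPKM in 4KD pools, *Psme1* at 101 and 79.2 against 3.09 and 2.42 FPKM, and *Tmigd1* at 19.6 and 22 against 2.69 and 3.64 FPKM. At 2C, NC pools had 4.28 and 4.74 FPKM of *Khdc3*, 13.9 and 16.1 FPKM of *Psme1* and 5.52 and 3.45 FPKM of *Tmigd1*. For these 3 genes the 4KD level at 4C was thus nearer to the 2C level than to the mean NC level at 4C.

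For other lower genes the difference at 8C was smaller, overlapped or had the opposite sign. *Commd3*, a member of the COMMD family of endosomal sorting proteins, had the smallest p of all genes and stood at 85.8 and 69.2 FPKM in NC and 13.5 and 6.13 FPKM in 4KD pools, a log2 difference of -2.94 (SE 0.45). At 8C it was at 80.3 and 71.4 FPKM in NC and 75.8 and 50.6 FPKM in 4KD pools, and the test of the difference between stages gave p = 0.00219 unadjusted and 1 adjusted (limma). *Ccr8*, a chemokine receptor, was at 11.6 and 12.5 FPKM in NC and 0.553 and 0.951 FPKM in 4KD pools, and at 8C, where its levels were lower, at 1.73 and 4.53 against 0.828 and 1.29 FPKM. *Srgn*, the core protein of serglycin, was at 4.27 and 9.51 FPKM in NC pools and listed at 0 in both 4KD pools. *Dnajc4* was at 3.56 and 12.6 FPKM in NC and listed at 0 in both 4KD pools, as was *Tmsb15a*, a thymosin with near-identical copies, at 6.04 and 42.0 FPKM in NC. *Duxbl1* was at 9.57 and 7.93 FPKM in NC and at 0.0302 and 0.00527 FPKM in 4KD pools. *Gm5891* and *Gm2016* complete this side with NC pools at 39.0 and 44.3 FPKM and at 48.2 and 10.5 FPKM, and no 4KD value above 5.56 FPKM. At 8C *Gm2016* was higher without overlap in 4KD pools, at 1.03 and 4.05 against 6.20 and 6.65 FPKM, and the log2 differences of *Tmsb15a* and *Gm5891* were 2.68 and 1.48 with overlap. *Duxbl1*, *Tmsb15a*, *Gm5891* and *Gm2016* are uncertain, since reads can be shared among near-identical family copies.

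The last of the 12 was *Eif2s3y*, a Y-linked translation factor, at 31.2 and 26.4 FPKM in NC and 0 and 6.83 FPKM in 4KD pools. All 7 Y-linked genes looked at were listed at 0 in 4KD replicate 1, and their summed level was 42.9 and 34.2 FPKM in NC pools and 0 and 8.36 FPKM in 4KD pools. *Xist*, the RNA that coats the inactive X chromosome of female cells, was at 1.60 and 0.737 FPKM in NC and 13.8 and 7.12 FPKM in 4KD pools. The 374 X-linked genes tested had a median log2 difference of 0.18, with 25.7% above without overlap, against -0.01 and 14.8% for 8596 autosomal genes. At 8C the Y-linked sum was 12.8 and 66.2 FPKM in NC and 54.7 and 45.4 FPKM in 4KD pools. The labels do not give the number of male embryos in a pool, and the part of the pools' sex in the 4C differences was not tested.

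**Figure D4:**
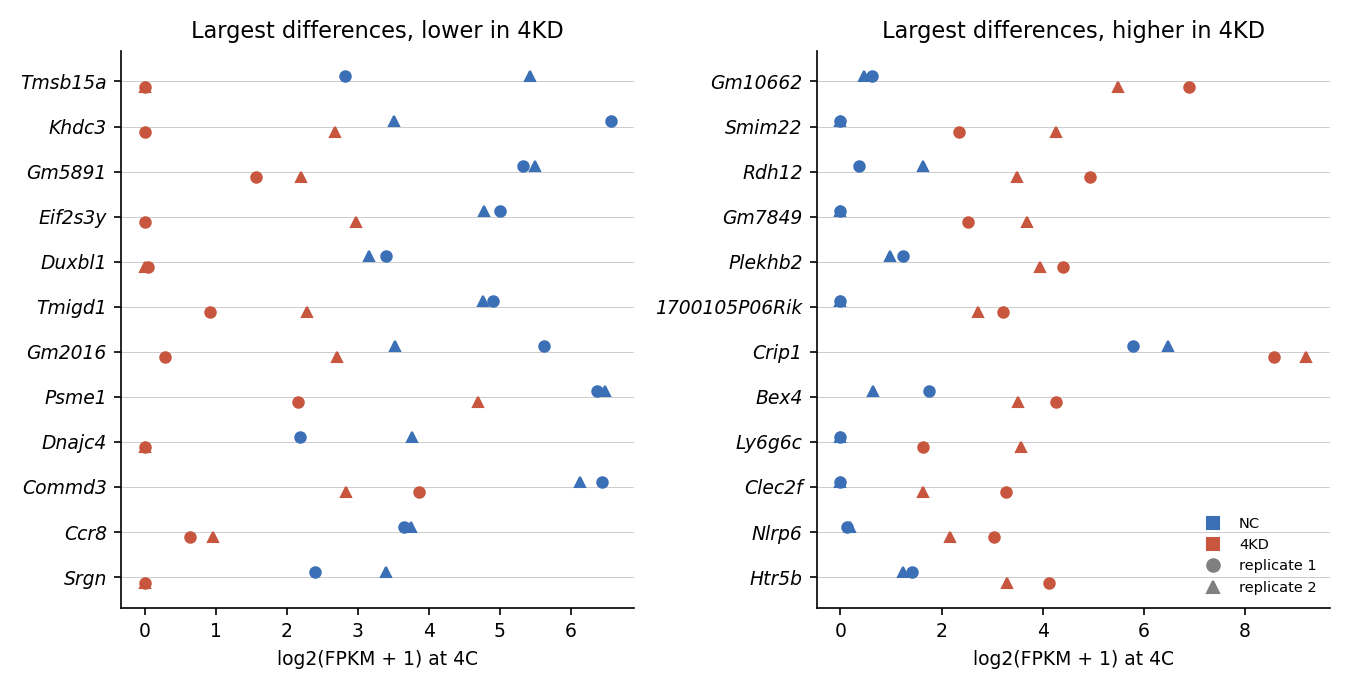
Levels at 4C, log2(FPKM + 1), of the 12 genes with the largest lower (left) and higher (right) values in 4KD pools. NC libraries are blue and 4KD libraries red, circles replicate 1 and triangles replicate 2. The groups do not overlap for any of these genes, by choice, and the NC libraries lie close together for *Tmigd1* and far apart for *Khdc3*.

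On the higher side the abundant gene was *Crip1* (chromosome 12, 114390223 to 114392088), a small LIM-domain protein. It was at 54.4 and 88.0 FPKM in NC and 380 and 594 FPKM in 4KD pools, a log2 difference of 2.76 (SE 0.58, adjusted p = 0.648 by limma). With pools paired in the limma fit the adjusted p was 0.0359 (numbers crossed between the stages) or 0.0455 (by neighbouring library numbers). Both of these pairings were chosen after seeing the data. By replicate number in only the 4C pools the value was 0.0494. By replicate number over all 8 libraries no gene was called, and the smallest adjusted p of any gene was 0.627 (limma). Which NC pool goes with which 4KD pool at 4C is in doubt. At 8C *Crip1* was at 125 and 42.2 FPKM in NC and 837 and 388 FPKM in 4KD pools. *Plekhb2*, a lipid-binding protein of recycling endosomes, was at 1.37 and 0.976 FPKM in NC and 20.1 and 14.5 FPKM in 4KD pools. *Rdh12*, a retinol dehydrogenase, was at 0.295 and 2.1 FPKM in NC and 29.5 and 10.3 FPKM in 4KD pools. *Nlrp6*, an innate immune sensor, was at 0.1 and 0.143 FPKM in NC and 7.26 and 3.52 FPKM in 4KD pools, and *Htr5b*, a serotonin receptor gene, at 1.68 and 1.36 FPKM against 16.5 and 8.87 FPKM. For these 5 genes both 4KD pools were also above both NC pools at 8C, with log2 differences of 2.95, 2.44, 2.53, 2.15 and 1.24.

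The largest difference of all was at *Gm10662*, at 0.531 and 0.38 FPKM in NC and 118 and 44.0 FPKM in 4KD pools. At 8C it was at 5.65 and 7.13 FPKM in NC and 17.5 and 0.342 FPKM in 4KD pools, and at 2C NC pools had 139 and 40.6 FPKM. *Bex4*, X-linked like *Tmsb15a*, was at 2.37 and 0.558 FPKM in NC and 18.3 and 10.5 FPKM in 4KD pools. *Smim22*, *1700105P06Rik*, *Ly6g6c* and *Clec2f* were listed at 0 in both NC pools and lay between 2.1 and 18.3 FPKM in 4KD pools. *Gm7849* was at 7.32e-05 and 0 FPKM in NC and 4.75 and 11.8 FPKM in 4KD pools.

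At 8C most of these genes had the same direction. The 8C pools did not enter the 4C difference but did enter its standard error, so genes with little spread at 8C were favoured by the limit on p, and the shares at 8C are a description. Of the 236 lower genes 201 (85.2%) also had a lower mean in 4KD pools at 8C, and 146 (61.9%) were lower there without overlap, against 64.4% of all genes with the same sign at both stages and 18.9% lower without overlap at 8C. Of the 133 higher genes 116 (87.2%) had the same sign at 8C and 87 (65.4%) were above without overlap, against 18% of all genes. Both 4KD pools were below both NC pools at both stages for 612 of all genes (6.27%) and above them for 523 (5.36%), and at 8C 680 genes (6.97%) had an unadjusted p under 0.05 and 0 an adjusted one. The stages have NC pools of their own, but the 4C and 8C pools have neighbouring library numbers, and whether they came from the same injections is not stated. The difference between the stages was called for 0 of 9753 genes (0%) and had an unadjusted p under 0.05 for 217 (2.22%). Among the 236 lower genes, 178 (75.4%) were lower in 4KD replicate 1 than in replicate 2, against 49.4% of all genes. Their median difference was -1.92 between the replicate 1 pools and -1.14 between the replicate 2 pools. Of the higher genes, 47 (35.3%) were lower in 4KD replicate 1. Both sets were chosen by their levels in these same pools, so these shares and medians are only a description. The sets hold only genes with a mean of at least 5 FPKM, while the shares of all genes start at 1 FPKM.

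Several of the named genes were also read in single-KD pools at 8C. With 1 receptor knocked down at a time, the log2 difference of *Psme1* was -5.44 with *Nr5a2* siRNA, 0.28 with *Rarg*, 0.18 with *Nr1h3* and -0.02 with *Nr2c2* siRNA. For *Khdc3* the 4 values were -6.43, -1.08, -0.68 and -0.54, and for *Tmigd1* -2.10, -0.21, 0.40 and 0.14. *Crip1* had 2.48, 0.25, -0.91 and 0.05, and *Plekhb2* 2.40, 0.41, -0.49 and -0.79. For these 5 genes the *Nr5a2* value had the direction seen in 4KD pools at 4C and was the largest in size. All 5 were picked from genes already apart in that direction in the 4KD pools at 8C, which also received *Nr5a2* siRNA. Other named genes are not given here. The 4 single-KD comparisons share 1 pair of NC pools and another stage, so the values are set side by side without a test. *Commd3*, for which 4KD gave -2.94 at 4C, had -0.43, -0.98, -0.37 and -1.34 in the single-KD pools.

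Promoters of some of these genes are shown because the targeted receptors bind DNA at known hexamers. RefSeq windows of 300 bases, 250 before to 50 after the annotated start, were matched for 7886 of the 9753 genes, among them 187 of the 236 on the low side and 106 of the 133 on the high side. The NR hexamer AGGTCA, read on both strands, occurred in 16.3% of all windows, in 14.9% of the genes tested, in 21.9% of windows on the low side and 14.2% on the high side. Its extension AAGGTCA, part of the same matches, occurred in 3.96% of the genes tested, in 16 lower genes (8.56%) and in 3 higher genes (2.83%). The NR5A-type site CAAGGTCA, again a subset, was in 1.31% of the genes tested, in 7 lower genes (3.74%) and in 1 higher gene (0.943%), and its variant CAAGGCCA in 2.04%, in 7 (3.74%) and in 2 (1.89%). Over all windows the last 3 were in 4.72%, 1.56% and 2.4%. The low and high sides hold only genes with a mean of at least 5 FPKM, while the genes tested start at 1 FPKM. A match in a window is a description of letters, not of binding. Shown 5′ to 3′ in the sense of the gene, with the match in capitals, are *Sdhd*, a subunit of succinate dehydrogenase (mm9 chr9:50411905-50412204, minus strand), *Prl3b1*, a placental lactogen (chr13:27334049-27334348, plus strand), *Khdc3* (chr9:72949955-72950254, plus strand) and *Hspe1*, the mitochondrial co-chaperonin (chr1:55144742-55145041, plus strand), all lower in 4KD pools. *Crip1* (chr12:114389973-114390272, plus strand), higher in 4KD pools, held none of the 4 motifs. The windows shown were picked by hand, so a match in each lower gene and none in *Crip1* is not a result. Among the higher genes *Gm5485*, *Rbm4b* and *Pomc* held AAGGTCA, and *Tmigd1* and *Psme1* were not among the lower genes with a match. Capitals mark the longest match, and the *Prl3b1* window holds a second AGGTCA on the opposite strand, shown in lower case. The letters are those of RefSeq on GRCm38.p6, and the mm9 positions come from their single exact match in that genome. *Sdhd* and *Prl3b1* hold CAAGGTCA, *Khdc3* CAAGGCCA and *Hspe1* AAGGTCA. In *Sdhd*, *Prl3b1* and *Khdc3* the site reads on the opposite strand, 36 bases after, 55 bases before and 208 bases before the start, and in *Hspe1* on the gene's strand, 48 bases before it.
Sdhd: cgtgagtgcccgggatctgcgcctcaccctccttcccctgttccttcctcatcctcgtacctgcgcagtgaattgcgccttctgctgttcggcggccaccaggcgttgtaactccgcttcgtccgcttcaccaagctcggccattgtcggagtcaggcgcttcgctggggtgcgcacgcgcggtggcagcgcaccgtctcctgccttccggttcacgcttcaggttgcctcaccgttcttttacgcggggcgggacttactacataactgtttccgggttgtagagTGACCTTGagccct
Prl3b1: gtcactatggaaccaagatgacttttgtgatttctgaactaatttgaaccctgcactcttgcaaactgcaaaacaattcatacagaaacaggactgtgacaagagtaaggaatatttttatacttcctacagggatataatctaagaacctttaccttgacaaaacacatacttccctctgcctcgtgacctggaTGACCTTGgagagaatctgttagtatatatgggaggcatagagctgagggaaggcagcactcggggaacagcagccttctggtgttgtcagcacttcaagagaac
Khdc3: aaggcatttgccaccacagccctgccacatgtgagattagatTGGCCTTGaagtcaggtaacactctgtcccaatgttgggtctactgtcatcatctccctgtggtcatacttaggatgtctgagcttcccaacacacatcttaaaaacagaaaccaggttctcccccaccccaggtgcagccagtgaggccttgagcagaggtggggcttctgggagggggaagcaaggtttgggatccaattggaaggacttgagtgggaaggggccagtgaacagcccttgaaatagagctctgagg
Hspe1: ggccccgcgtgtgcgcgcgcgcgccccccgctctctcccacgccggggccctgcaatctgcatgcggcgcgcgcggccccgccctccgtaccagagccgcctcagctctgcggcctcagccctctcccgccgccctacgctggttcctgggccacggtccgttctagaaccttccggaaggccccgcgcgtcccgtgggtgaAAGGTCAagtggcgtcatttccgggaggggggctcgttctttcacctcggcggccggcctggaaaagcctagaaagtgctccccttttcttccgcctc
Crip1: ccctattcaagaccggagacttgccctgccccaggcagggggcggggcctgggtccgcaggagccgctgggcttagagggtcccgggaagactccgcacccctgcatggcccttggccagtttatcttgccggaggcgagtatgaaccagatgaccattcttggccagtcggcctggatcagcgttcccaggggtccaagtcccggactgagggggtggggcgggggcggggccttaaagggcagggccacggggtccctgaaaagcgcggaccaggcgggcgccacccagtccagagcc

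Among genes of mitochondrial energy metabolism, respiratory chain subunits were often on the low side. Of 80 oxidative phosphorylation subunits tested, 61 had a lower mean in 4KD pools, 26 (32.5%) were lower without overlap against 15.8% of all genes, 2 (2.5%) were higher without overlap against 15.3%, and 10 had an unadjusted p under 0.05, all lower, where 3.77% of all genes did. The median log2 difference was -0.43, or -0.49 between the replicate 1 pools and -0.31 between the replicate 2 pools. Without 4KD replicate 1 it was -0.094. *Ndufa8*, a complex I subunit, was at 74.6 and 81.3 FPKM in NC and 5.15 and 21.0 FPKM in 4KD pools. *Ndufs6* of the same complex was at 268 and 137 FPKM against 25.7 and 96.6 FPKM. Complex II gave 2 of the 10 genes: *Sdhd* at 42.8 and 68.6 FPKM in NC against 15.5 and 20.0 FPKM, and *Sdhc* at 15.6 and 27.0 FPKM against 4.85 and 9.28 FPKM. For all 4 genes the groups were apart. The most abundant subunits, *Atp5k*, *Cox8a*, *Cox4i1* and *Cox6b1*, overlapped between the groups at 398 to 1770 FPKM. Of 74 mitochondrial ribosomal proteins, 59 had a lower mean, but the 13 (17.6%) lower without overlap were close to the 15.8% of all genes and 1 (1.35%) had an unadjusted p under 0.05. Of the rest 4 were higher without overlap, and the median was -0.24, which over the alternative settings ran from -0.55 to 0.03. At 8C the medians of these lists were -0.17 and -0.10.

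The enzymes that feed the respiratory chain gave a like count without overlap. Of 37 genes of glycolysis, pyruvate use and the TCA cycle, 22 had a lower mean. Without overlap 12 (32.4%) were lower and 2 (5.41%) higher, against 15.8% and 15.3% of all genes. The 4 (10.8%) with an unadjusted p under 0.05 (limma) were all lower, where 3.77% of all genes were, and all act on TCA intermediates. *Idh1*, the cytosolic isocitrate dehydrogenase, was at 62.4 and 33.9 FPKM in NC and 4.96 and 18.5 FPKM in 4KD pools, and its mitochondrial relative *Idh2* at 19 and 24.3 FPKM against 2.41 and 13.4 FPKM. The succinyl-CoA ligase subunits *Suclg1* and *Sucla2* were at 104 and 87.8 FPKM against 42.5 and 47.2 FPKM, and at 75.1 and 52.8 FPKM against 22.2 and 31.2 FPKM. All 4 were lower without overlap at 8C too, where *Idh1* was at 92.0 and 58.9 FPKM in NC and 13.1 and 16.0 FPKM in 4KD pools. The list's median was -0.11. The mitochondrial chaperonins *Hspd1* and *Hspe1*, neighbours that share a promoter region, were at 62.6 and 30.2 FPKM and 46.1 and 51.5 FPKM in NC, and at 12.5 and 27.0 FPKM and 3.89 and 23.2 FPKM in 4KD pools. They are part of a list of 27 heat shock and unfolded protein response genes with 6 (22.2%) lower and 0 higher without overlap. This list also held *Bag3*, a co-chaperone, at 16.1 and 14 FPKM against 1.70 and 1.85 FPKM. Of its 4 members of highest level *Hsp90ab1*, *Hspa8* and *Atf4* overlapped and *Dnajb9*, a chaperone of the endoplasmic reticulum, was at 501 and 534 FPKM in NC and 304 and 410 FPKM in 4KD pools, and the median was -0.01, with a change of sign among the alternative settings.

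Lists of proteasome genes, initiation factors and cytosolic ribosomal proteins had medians between -0.10 and 0.02. Of 46 proteasome genes 34 had a lower mean, and 10 (21.7%) were lower and 2 (4.35%) higher without overlap, against 15.8% and 15.3% of all genes, with a median of -0.10. Beside *Psme1*, *Psmc4*, an ATPase of the proteasome base, was at 214 and 208 FPKM in NC and 64.9 and 109 FPKM in 4KD pools, and the assembly chaperone *Psmg1* at 53.4 and 42.9 FPKM against 23.2 and 24.6 FPKM. *Eif4e*, the cap-binding protein, was at 688 and 850 FPKM against 179 and 513 FPKM, among 43 initiation factors with a median of 0.02. The 80 cytosolic ribosomal proteins had a median of -0.06, with 7 (8.75%) lower and 5 (6.25%) higher without overlap, both under the shares of all genes. Genes of RNA polymerase I and ribosome biogenesis lay on the other side, with 0 of 41 lower and 11 (26.8%) higher without overlap, against 15.3% of all genes, and a median of 0.27. *Utp3*, a small-subunit processome protein, was at 78.1 and 60.1 FPKM in NC and 150 and 120 FPKM in 4KD pools, and *Npm1*, nucleophosmin, at 797 and 922 FPKM against 941 and 1171 FPKM.

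Most genes that the study lists as activated at 4C had a lower mean in 4KD pools. All 15 such genes were tested, 12 had a lower mean, 4 (26.7%) were lower and 0 higher without overlap, against 15.8% and 15.3% of all genes, and the median log2 difference was -0.83. It was -0.93 between replicate 1 pools and -0.42 between replicate 2 pools, -0.30 without 4KD replicate 1, and -0.15 over the members with at least 5 FPKM. *S100a3*, a calcium-binding protein, was at 74.4 and 29.5 FPKM in NC and 8.73 and 7.41 FPKM in 4KD pools, with at most 0.96 FPKM at 2C. *Prl3b1* was at 48.3 and 47.3 FPKM in NC and 1.46 and 25.1 FPKM in 4KD pools, and listed at 0 at 2C. *Sycn*, the most abundant member, went the other way in its mean, at 253 and 9.59 FPKM in NC and 157 and 136 FPKM in 4KD pools, and the NC pools enclosed both 4KD values. Of 40 genes activated at 8C, 25 had a lower mean. Without overlap 6 (15%) were lower and 4 (10%) higher, no more than among all genes. An unadjusted p under 0.05 (limma) was seen for 7 (17.5%), 4 lower and 3 higher, against 6.17% of all genes. The median was -0.33. Here the replicate 1 pools gave -0.88 and the replicate 2 pools 0.22, and the median was 0.25 without NC replicate 1 and -0.73 without NC replicate 2, so the direction rested on 1 pool. *Slc24a5*, a cation exchanger of pigment cells, was at 25.7 and 16.3 FPKM in NC and 2.46 and 1.65 FPKM in 4KD pools, and *Chmp4c*, an ESCRT-III subunit, at 3.82 and 2.33 FPKM against 0.324 and 0. On the other side *Gm5485* was at 3.32 and 1.56 FPKM against 16.0 and 9.04 FPKM, and *Calm5* at 19.6 and 0 FPKM against 18.6 and 54.0 FPKM with overlap. The Y-linked *Ddx3y* and the X-linked *Xist* were also among the 7 members with an unadjusted p under 0.05. Of the 1111 genes tested that were higher at 8C than at 2C, 242 (21.8%) were lower and 60 (5.4%) higher without overlap, with a median of -0.22, which was -0.42 for replicate 1 and 0 for replicate 2 pools and ran from -0.36 (without 4KD replicate 2) to -0.085 (without 4KD replicate 1). Such genes made up 25% of the 236 lower genes, 6.02% of the 133 higher genes and 11.4% of all genes tested. These shares are not on a like footing. The lower and higher sets hold only genes with a mean of at least 5 FPKM, which 6167 of the 9753 genes tested reached. The list of genes higher at 8C has a limit of 5 FPKM too, in the 2C or 8C pools. The position of the listed genes in each library was given above. Since NC replicate 1 stood further along than the rest, the part of pool timing in these counts was not tested.

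**Figure D5:**
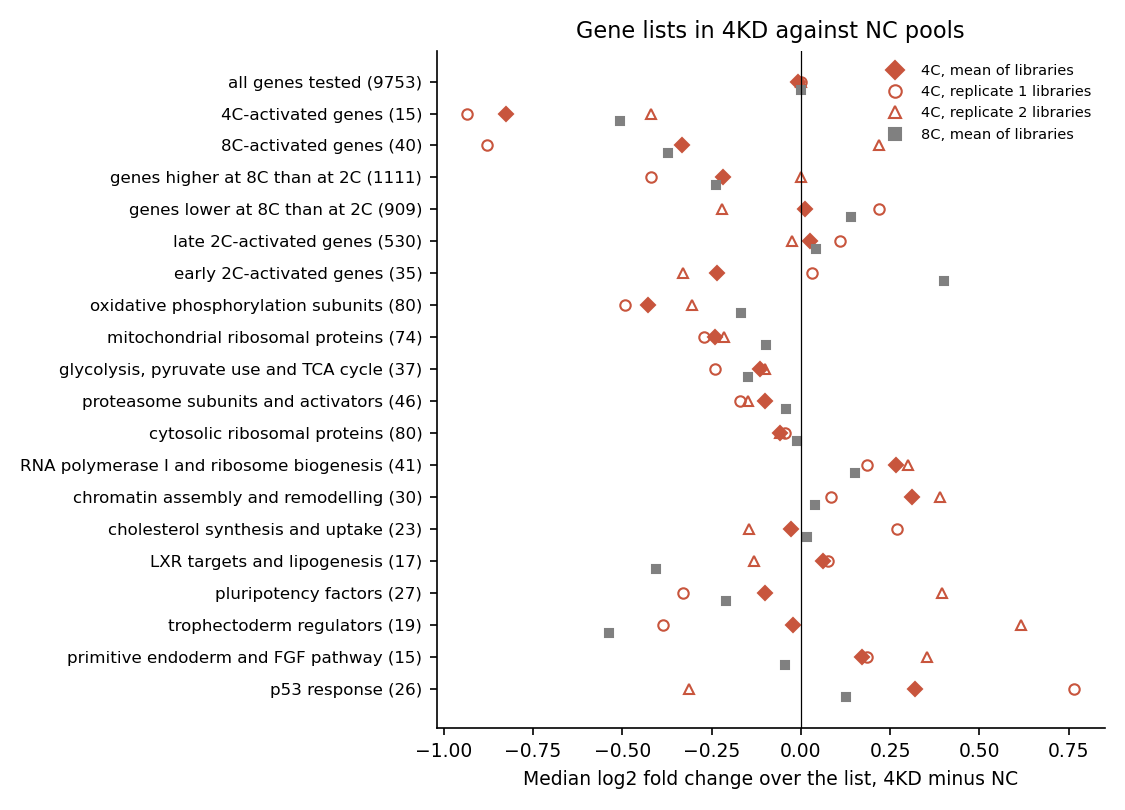
Median log2 difference, 4KD minus NC, over gene lists (number of genes tested in brackets). Filled diamonds are the means of both libraries at 4C, open circles and triangles the replicate 1 and replicate 2 libraries at 4C, and grey squares the 8C libraries. The replicate pairs fall on the same side of 0 for oxidative phosphorylation (-0.49 and -0.31) and on opposite sides for 8C-activated genes (-0.88 and 0.22).

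The large lists of ZGA genes had medians near 0, and the small lists of early 2C and minor ZGA genes had negative ones. Of 41 genes activated in zygotes 7 (17.1%) were lower and 8 (19.5%) higher without overlap, with a median of 0.07. The 530 genes activated in late 2C embryos had a median of 0.03, with 73 lower and 73 higher without overlap, and the 1056 major ZGA genes a median of 0.04, with 141 and 166. Of 35 genes activated in early 2C embryos 9 (25.7%) were lower and 2 higher without overlap, with a median of -0.24, and of 48 minor ZGA genes 12 (25%) were lower and 3 (6.25%) higher, with a median of -0.26, against 15.8% and 15.3% of all genes. Both medians changed sign among the alternative settings, up to 0.15. Of 33 genes of the 2C burst, a separate list, 6 (18.2%) were lower and 3 (9.09%) higher without overlap. Their median was -0.18 and ran from -0.61 to 0.25 over the alternative settings. The 4 members of highest level all overlapped. An unadjusted p under 0.05 (limma) was seen for 5 (15.2%), 4 lower and 1 higher, against 6.17% of all genes. Of these, *Tcstv1* was at 60.6 and 131 FPKM in NC and 8.97 and 15.3 FPKM in 4KD pools. *Tcstv3* was at 47.4 and 131 FPKM against 9.60 and 16.4 FPKM. *Gm5662* of the same kind was at 66.2 and 23.9 FPKM against 2.25 and 19.8 FPKM. *Arg2*, arginase 2, was higher in both 4KD pools, at 40.2 and 56.6 FPKM against 127 and 107 FPKM. At 8C the early 2C list had a median of 0.40, *Tcstv1* was at 0 and 2.51 FPKM in NC and 4.85 and 6.72 FPKM in 4KD pools, and *Tcstv3* at 4.97 and 7.37 against 1.19 and 3.76 FPKM. These families have near-identical copies, and their values are uncertain for that reason. Oocyte-deposited transcripts had 2 lower and 4 higher of 34 without overlap and a median of -0.03. The NC pools themselves differed here, as for *Omt2b* at 37.2 and 369 FPKM.

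Lists of genes downstream of the targeted receptors had medians on either side of 0. Among all genes 15.8% were lower and 15.3% higher without overlap. Of 17 LXR targets and lipogenesis genes, 3 were lower, *Nr1h3* itself among them, and 1 higher without overlap, with a median of 0.06. The abundant *Dgat2*, which makes triglycerides, was the higher one, at 34.1 and 13.7 FPKM in NC and 113 and 35.9 FPKM in 4KD pools. Of 23 genes of cholesterol synthesis and uptake 5 (21.7%) were lower and 6 (26.1%) higher without overlap, with 0 at an unadjusted p under 0.05 and a median of -0.03. *Fdft1*, squalene synthase, was at 154 and 186 FPKM in NC and 58.6 and 121 FPKM in 4KD pools, and *Npc2* overlapped at 104 to 160 FPKM. Of 24 retinoic acid genes only 6 passed the level of 1 FPKM, 1 lower and 1 higher without overlap. Of these 6, 5 had a lower mean, with a median of -0.61 (-1.71 and 0.03 in the replicate pairs). *Fabp5*, a fatty acid and retinoic acid carrier, was at 14.9 and 5.60 FPKM against 1.43 and 4.90 FPKM, and the retinol dehydrogenase *Rdh11* at 1.27 and 3.61 FPKM against 6.42 and 7.83 FPKM. Of 18 NR5A targets known from other tissues or, as *Nanog*, *Pou5f1* and *Tbx3*, from pluripotent cells, 6 were tested and 5 had a lower mean. Their median was -0.47, and over the alternative settings it ran from -0.86 to 0.03. Without overlap 2 were lower and 0 higher, *Ccne1* (cyclin E1) at 187 and 154 FPKM against 105 and 102 FPKM, and *Nanog*. Of 12 receptor coregulators 2 were lower and 1 higher without overlap. *Hdac3*, the deacetylase of the NCoR complex, was at 3.35 and 3.07 FPKM against 1.14 and 0 FPKM, while *Ncoa3* and *Med1* overlapped.

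Most lineage and pluripotency genes overlapped between the groups at 4C. *Nanog* was at 14.6 and 8.56 FPKM in NC and 7.15 and 7.92 FPKM in 4KD pools, apart by a gap of under 1 FPKM. *Pou5f1* was at 50.7 and 22.9 FPKM against 25.4 and 20.8 FPKM, *Tdgf1* at 68.2 and 5.35 FPKM against 8.04 and 8.76 FPKM, and *Id3*, a target of BMP signals, at 287 and 54.2 FPKM against 42.1 and 75.9 FPKM. In these 3 genes NC replicate 1 stood alone on the high side. *Tfap2c*, a trophectoderm factor, was at 40.3 and 44.9 FPKM against 36.5 and 40.2 FPKM, a log2 difference of -0.15. *Tead4* (43.1 and 23.7 FPKM against 24.0 and 30.9 FPKM) and *Klf5* (40.6 and 13.4 FPKM against 16.6 and 24.0 FPKM) overlapped. *Gata6*, *Fgfr1*, *Fgfr2* and *Gata3* overlapped at or below 8.86 FPKM, *Cdx2* did not exceed 0.316 FPKM and *Sox2* was listed at 0 in all 4 pools. At 8C *Klf5* was at 71.8 and 75.6 FPKM in NC and 19.9 and 20.3 FPKM in 4KD pools, *Id3* at 767 and 814 FPKM against 331 and 155 FPKM and *Nanog* at 10.8 and 18.9 FPKM against 3.83 and 2.34 FPKM. The tests of the difference between the stages gave an adjusted p of 1 (limma) for each of these 3 genes. The 27 pluripotency factors had a median of -0.10 (-0.33 and 0.40 in the replicate pairs) and the 19 trophectoderm regulators -0.02 (-0.39 and 0.62). *Wwtr1* (TAZ), a Hippo pathway coactivator, was at 13.2 and 8.92 FPKM in NC and 24.2 and 21.2 FPKM in 4KD pools, and was higher without overlap at 8C too. *Dppa5a*, abundant in the inner cell mass, was at 1775 and 1859 FPKM against 514 and 1693 FPKM, where only 4KD replicate 1 stood apart.

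Histone-modifying and remodelling genes were more often on the high side than all genes, while histone genes were not. Among all genes, 15.8% were lower and 15.3% higher without overlap. Of 32 histone demethylases, deacetylases and acetyltransferases 11 (34.4%) were higher and 5 lower without overlap, with a median of 0.33. *Kdm5b*, an H3K4 demethylase, was at 43.9 and 36.9 FPKM in NC and 130 and 89.3 FPKM in 4KD pools, and at 30.1 and 40.7 FPKM against 78.6 and 74.0 FPKM at 8C. Of 30 chromatin assembly and remodelling genes 7 (23.3%) were higher and 1 lower without overlap, with a median of 0.31. Of 14 DNA methylation and demethylation genes 2 were lower and 2 higher, with a median of 0.09. *Zfp707*, a zinc finger gene, was at 23.1 and 22.1 FPKM in NC and 157 and 60.1 FPKM in 4KD pools, and NC pools at 2C had 88.2 and 102 FPKM. The 204 Zfp genes as a whole had 28 lower and 39 (19.1%) higher without overlap and a median of 0.11. Of 36 histone genes, whose copies share reads, 5 were lower and 1 higher without overlap, and the median was -0.49.

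General responses to siRNA or injection were looked at in the same way, beside 15.8% of all genes lower and 15.3% higher without overlap. Of 26 p53 response genes 3 were lower and 1 higher without overlap. *Cdkn1a* (p21) was at 171 and 45.0 FPKM in NC and 291 and 34.9 FPKM in 4KD pools, so the replicate 1 pools were the higher in both groups, and the list's median was 0.77 between replicate 1 and -0.31 between replicate 2 pools. Of 16 RNA sensing and interferon genes 4 were lower and 4 higher. *Ifitm2*, an interferon-induced membrane protein, was at 39.4 and 54.9 FPKM in NC and 161 and 68.0 FPKM in 4KD pools, and *Ifitm3* was listed at 0 in both NC pools with 1.27 and 2.15 FPKM in 4KD pools. Of 13 genes of the siRNA machinery *Dgcr8*, the microprocessor subunit, was at 6.84 and 5.28 FPKM against 25.6 and 15.5 FPKM. Of cyclins and cyclin-dependent kinases, *Ccna2* was at 317 and 280 FPKM in NC and 292 and 305 FPKM in 4KD pools, and 5 of 25 were lower and 1 higher without overlap, with a median of -0.15.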

How the data were processed

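Smart-seq2 RNA-seq libraries of embryo pools were used. The deposited values are FPKM per gene, made by the authors with TopHat 2.1.1 and Cufflinks 2.2.1 on mm9 with refFlat genes, per the study's methods. Read depth is not given with them. The submitters' notes name Bowtie2 2.2.2, CASAVA 1.8, MACS 1.4.2 and bedtools 2.29.0 for the series.

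Here log2(FPKM + 1) was fitted with limma 3.58.1 in R 4.3.3 over 8 libraries (NC and 4KD at 4C and 8C, 4 residual degrees of freedom), with a trended prior and Benjamini-Hochberg adjustment over 9753 genes of at least 1 FPKM on average in a 4C group. A fold change on this scale understates changes of low genes. The steps were tested on simulated data: of 200 genes with a log2 change of 3, 146 (73%) were recovered, with 11 false calls. The changed genes were drawn from those with a mean log2(FPKM + 1) above 4. Apart from that change, all libraries of a gene had the same mean and independent noise. The share is thus not the power over all genes tested. Members and lists were chosen with earlier results of these data known. Named genes were the targets and their paralogs; the 12 largest differences a side among genes without overlap, with an unadjusted p under 0.05 and a mean of at least 5 FPKM; in each list, members without overlap at that p and up to 4 of the highest level; and lineage genes the study discusses. Settings tried were the pseudocount, level filters, scaling, blocks and leaving out each 4C library. The result of the list of compaction, junction and polarity genes is not reported here.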

Additional observations from a re-analysis of the deposited data

How the results depend on the processing

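The count of genes at an adjusted p under 0.05 (limma) was 0 with another pseudocount, no level filter, at least 5 FPKM, median-ratio or quantile scaling, no trend, only the 4C libraries, or a replicate block. It was 2 (*Crip1* and *Gm10662*) with a replicate block on only the 4C libraries, 1 (*Crip1*) with the crossed replicate block and 1 (*Crip1*) with the library-number run as block, the last 2 chosen after seeing the data, and 0 to 37 with 1 library left out. The 37 came without NC replicate 1. With the replicate block 513 genes had an unadjusted p under 0.05, against 602 without it. Same-numbered 4KD and NC libraries deviated together (r = 0.353 at 4C and 0.369 at 8C), but across stages r lay between -0.317 and -0.29, so the numbers were not taken to pair the samples across stages. The 602 became 333 at a mean of at least 5 FPKM, 357 in only the 4C libraries, 1098 with the crossed block, 1199 with the run block and 625 to 1197 with 1 library left out, the highest without 4KD replicate 2.

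The median log2 difference of 4C-activated genes was -0.15 at a mean of at least 5 FPKM and ran from -1.03 to -0.30 with 1 library left out, nearest to 0 without 4KD replicate 1. That of oxidative phosphorylation ran from -0.67 to -0.094 in the same way. That of glycolysis and the TCA cycle was -0.27 at a mean of at least 5 FPKM and ran from -0.40 (without NC replicate 1) to -0.14. That of genes lower at 8C than at 2C ran from -0.31 (without NC replicate 1) to 0.22. The causes were not tested. With 2 pools a group and unknown read depth, small differences of low genes were not detectable.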
